A study of Mus musculus with 2 samples.

Results

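Keratin-associated proteins are small proteins that fill the space between the keratin filaments of the hair shaft. Their cysteines form disulfide bonds with hair keratins, and other members are rich in glycine and tyrosine. They are made in the upper bulb of the growing follicle, where cells leaving the matrix become cortex and cuticle of the hair, after the hair keratins have begun to accumulate. Here they were taken as all symbols of the deposited expression table that begin with Krtap followed by a digit, which gave 52 genes of 23233. The gene name holds the subfamily number before the hyphen, and the 52 genes fall into 23 subfamilies.

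The table holds 2 RNA sequencing libraries, 1 from ZIP10-positive and 1 from ZIP10-negative cells. Both came from ventral skin of C57BL/6 mice aged 7 days, an age at which the first hair cycle is in its growth phase, and no mutation, drug or transgene is named for either. ZIP10 is a zinc importer of the cell surface, encoded by Slc39a10. Skin was digested with dispase and collagenase, the suspended cells were labelled with polyclonal anti-ZIP10 (normal rabbit IgG served alongside it) and with 7-AAD, a dye of dead cells, and the 2 fractions were sorted. The titles call the cells follicle cells, but the protocol starts from whole ventral skin and names neither a follicle marker in the sort nor the number or pooling of animals. With 1 library per group there is no replicate and no test, and every difference below describes these 2 libraries.

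Levels are given in RPKM, which divides the reads of a gene by its length and by the size of the library. The depth was estimated at 2.78e+06 reads for the ZIP10-positive and 2.71e+06 for the ZIP10-negative library. Slc39a10 stood at 49.4 RPKM against 11.1 RPKM. Most genes had higher RPKM in the ZIP10-positive library: the median of the 9620 genes with 1 RPKM or more in both was 1.97-fold higher there, a log2 ratio of 0.98. Ratios are therefore given also relative to this median gene. Of the 12249 genes with 1 RPKM or more in a library, 14.7% were 2-fold or more higher relative to it and 11.4% lower. As deposited, 44.1% were higher and 3.55% lower. All 7 basal keratinocyte markers reached 1 RPKM in both libraries, with a summed level of 2304 against 781 RPKM, and 5 were 2-fold or more higher as deposited but 1 relative to the median gene. All 7 fibroblast markers reached it too, with a summed level of 539.7 against 448 RPKM, and against the median gene 2 counted as higher and 1 as lower, around a median log2 ratio of -0.54. Of 8 macrophage markers 7 were 2-fold or more higher relative to the median gene, with a summed level of 1147 against 49.3 RPKM and Lyz2, Aif1, C1qa and C1qb listed at 0 in ZIP10-negative cells. The 5 erythrocyte markers that reached 1 RPKM were all 2-fold or more lower, and the list summed to 16374 against 283655 RPKM. The part of these cells in the results below was not tested, and in sorted bulk RNA, fewer cells of a type and less RNA per cell cannot be told apart.

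Promoters of 47 of the 52 genes were held by a RefSeq table of the build GRCm38.p6, each from 250 bases before to 50 bases after the start of the gene. The promoters of Krtap8-1, Krtap11-1 and Krtap15 are shown because these genes, with Krtap7-1, were the members at 5 RPKM or more in both libraries; Krtap7-1 was not among the promoters used here. They lie at chr16:89487903-89488202 on the minus strand, chr16:89571134-89571433 on the minus strand and chr16:88828759-88829058 on the plus strand of that build, which is not the build of the deposited values. Capitals mark matches to TATAAA, the core of the TATA box that positions the start of transcription, and no capitals mean no match on either strand. Only exact matches were marked. The Krtap15 sequence holds the close stretch tatataagg, so its lack of capitals does not mean that it lacks a TATA box.
Krtap8-1: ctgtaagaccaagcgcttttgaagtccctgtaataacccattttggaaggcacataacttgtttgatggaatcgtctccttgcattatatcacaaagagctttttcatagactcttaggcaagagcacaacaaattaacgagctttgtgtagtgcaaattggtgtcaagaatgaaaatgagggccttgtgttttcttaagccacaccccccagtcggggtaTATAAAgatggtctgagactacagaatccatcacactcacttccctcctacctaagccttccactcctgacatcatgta
Krtap11-1: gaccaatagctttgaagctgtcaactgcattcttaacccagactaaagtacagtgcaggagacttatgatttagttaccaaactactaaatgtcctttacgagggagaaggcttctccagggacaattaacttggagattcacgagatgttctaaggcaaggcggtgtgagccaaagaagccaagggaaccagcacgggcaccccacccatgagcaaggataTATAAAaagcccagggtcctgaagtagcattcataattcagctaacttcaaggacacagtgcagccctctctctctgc
Krtap15: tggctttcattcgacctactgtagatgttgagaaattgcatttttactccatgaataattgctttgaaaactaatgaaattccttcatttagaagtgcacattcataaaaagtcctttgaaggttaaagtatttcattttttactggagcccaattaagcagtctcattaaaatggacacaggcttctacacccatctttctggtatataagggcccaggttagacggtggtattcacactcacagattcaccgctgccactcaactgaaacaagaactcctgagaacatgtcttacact

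The TATAAA match began 29 bases before the start in Krtap8-1 and 28 bases before it in Krtap11-1. Searched on both strands, TATAAA was present in 38 of the 47 promoters, or 80.9%, against 13.6% of all 32851 promoters of the table. On the sense strand and starting 40 to 20 bases before the start, it was present in 28 promoters, or 59.6%, against 1.99% of all promoters. CCAATAAA, a sequence bound by homeodomain proteins of the Hox13 group, was found on either strand in 0 of the 47 and in 1.12% of all. Matches to the 2 sequences cannot overlap each other. A match describes letters in this window and does not show that a factor binds there.

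Few of the 52 genes were measured. A value above 0 in a library was listed for 14 genes, or 26.9% against 64.6% of all genes, and 12 reached 1 RPKM in a library, which is 23.1% of the 52 against 52.7% of all 23233 genes. In the ZIP10-positive library 10 genes reached 1 RPKM and in the ZIP10-negative library 8, with 6 in both, while among all genes 50.3% and 43.8% did. The member just above this minimum was Krtap2-4, at 1.15 RPKM in ZIP10-positive cells, and those just below it were Krtap6-1, at 0.461 and 0.472 RPKM in ZIP10-positive and ZIP10-negative cells, and Krtap3-2, at 0.434 RPKM in ZIP10-positive cells and listed at 0 in the other library. The other 38 genes were listed at 0 in both. A listed 0 may also be a gene whose level was not estimated: Psmg4, a proteasome assembly chaperone, and Ndufaf3, a complex I assembly factor, both needed widely, are listed at 0 in ZIP10-negative cells at 69.5 and 24.97 RPKM in the other library.

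The depth leaves room for low levels among the genes at 0. These genes are 304 to 1652 bases long in RefSeq, and 3 reads in the ZIP10-positive library would be worth 0.743 RPKM on the longest and 10.3 RPKM on the shortest. For 34 of the 38, 3 reads would exceed 1 RPKM, and for 6 of these 1 read would. A level of 1 RPKM in the 34 would thus rest on fewer than 3 reads, as did the listed values of Krtap2-4 and Krtap3-2.

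The members that reached 1 RPKM belong to 10 of the 23 subfamilies, numbers 1, 2, 3, 7, 8, 11, 13, 15, 16 and 17. By textbook class, 4 of 15 genes of the high glycine-tyrosine subfamilies reached it, 7 of 18 of the high-sulfur subfamilies and 1 of 17 of the ultra-high-sulfur subfamilies. The last class holds the large subfamilies 4, 5 and 9, in which all 16 listed genes stood at 0 in both libraries. All 4 members of the subfamilies 10, 12 and 14 and all 5 members of the subfamilies 20, 22, 24, 26 and 27 were also listed at 0, as were the 2 of subfamily 31, which was assigned to no class.

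**Figure D1:**
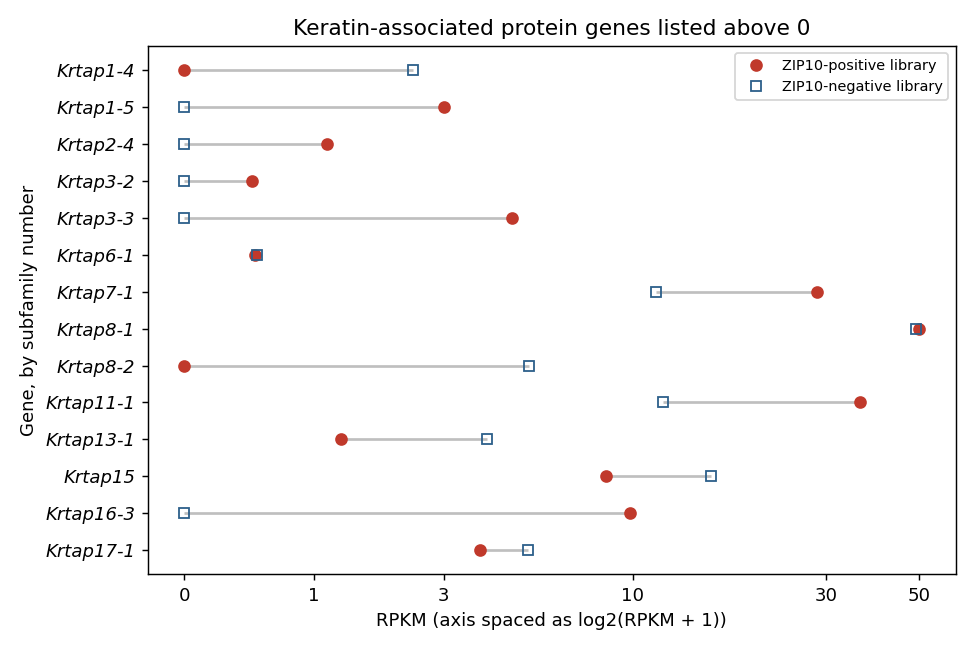
Levels of the 14 keratin-associated protein genes listed above 0, in RPKM on a log2(RPKM + 1) axis, with a filled circle for the ZIP10-positive and an open square for the ZIP10-negative library. Each point is 1 library. Krtap8-1 is highest in both libraries, at 49.8 and 49.1 RPKM, and 7 genes stand at 0 in 1 of the libraries.

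Among the high glycine-tyrosine genes, Krtap8-1 was the most abundant of all 52 members in both libraries. It was measured at 49.8 RPKM in the ZIP10-positive library and at 49.1 RPKM in the ZIP10-negative one, from an estimated 52 and 50 reads. As deposited the levels were nearly equal, with a ratio of 1.01 and an exact 95% counting interval of 0.675 to 1.53. Against the median gene Krtap8-1 was 0.515-fold, with an interval of 0.342 to 0.775, so it lay below the median gene beyond its counting error. Such intervals cover counting error only, since the reads carry no molecular identifiers and there is no replicate.

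Krtap7-1, the only listed gene of its subfamily, was measured at 28.4 RPKM in the ZIP10-positive library and at 11.5 RPKM in the ZIP10-negative one, from an estimated 33 and 13 reads. Its ratio was 2.48, with an interval of 1.27 to 5.13. Relative to the median gene it was 1.26-fold, with an interval of 0.644 to 2.60 that includes equality. The log2 ratio with a pseudocount of 1 was 0.31 against the median gene but -0.016 with each library scaled to its genes outside the 50 most abundant.

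The remaining high glycine-tyrosine genes above 0 were seen in few reads. Krtap16-3 stood at 9.81 RPKM in ZIP10-positive cells, about 10 reads, with a listed 0 in the ZIP10-negative library. Krtap8-2 went the other way, at 5.30 RPKM in ZIP10-negative cells, about 4 reads, with a listed 0 in the ZIP10-positive library. The current RefSeq name of Krtap8-2 is Krtap19-5, so that subfamily 8 of this table joins genes now numbered apart. The same holds for subfamily 16: its 7 other genes, all listed at 0 in both libraries, are now named Krtap19-1, Krtap19-2, Krtap19-3, Krtap19-4, Krtap19-9b, Krtap21-1 and Krtap6-5. Krtap6-1 had nearly the same low level in both libraries, equal to about 0.505 reads in each, the only member above 0 estimated at less than a whole read.

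Among the high-sulfur genes, Krtap11-1 was the most abundant, and it had the highest ratio of the members with values in both libraries. It was measured at 36.2 RPKM in the ZIP10-positive library and at 11.9 RPKM in the ZIP10-negative one, from an estimated 81 and 26 reads. The ratio was 3.04, with an interval of 1.93 to 4.93, and 1.54 relative to the median gene, with an interval of 0.981 to 2.50. Krtap11-1 was thus higher as deposited, while against the median gene its counting interval includes equality.

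Krtap15, first described as PMG2, had the opposite order. It was measured at 8.52 RPKM in the ZIP10-positive library and at 15.7 RPKM in the ZIP10-negative one, from an estimated 15 and 27 reads. The ratio was 0.542, with an interval of 0.268 to 1.06, and 0.275 relative to the median gene, with an interval of 0.136 to 0.536. Krtap13-1 stood at 1.32 and 4.05 RPKM, about 2 and 6 reads, a ratio of 0.325 with an interval of 0.0321 to 1.82. Relative to the median gene Krtap13-1 was 0.165-fold, with an interval of 0.0163 to 0.923. Both genes lay below the median gene beyond counting error, though neither interval excludes equal RPKM.

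Subfamilies 1, 2 and 3, whose proteins are high-sulfur components of the hair cortex, were listed in 1 library at a time. Krtap1-5 stood at 3.01 RPKM in ZIP10-positive cells, about 7 reads, and its close neighbour Krtap1-4 at 2.39 RPKM in ZIP10-negative cells, about 6 reads, each listed at 0 in the other library. Krtap3-3 stood at 4.76 RPKM in ZIP10-positive cells, about 7 reads, and Krtap2-4 at 1.15 RPKM, about 2 reads, and both were listed at 0 in ZIP10-negative cells. Krtap17-1, the single measured ultra-high-sulfur gene, was measured at 3.87 RPKM in the ZIP10-positive library and at 5.29 RPKM in the ZIP10-negative one. Its about 6 and 8 reads gave a ratio of 0.732 with an interval of 0.209 to 2.40, which excludes neither equal RPKM nor the ratio of the median gene.

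**Figure D2:**
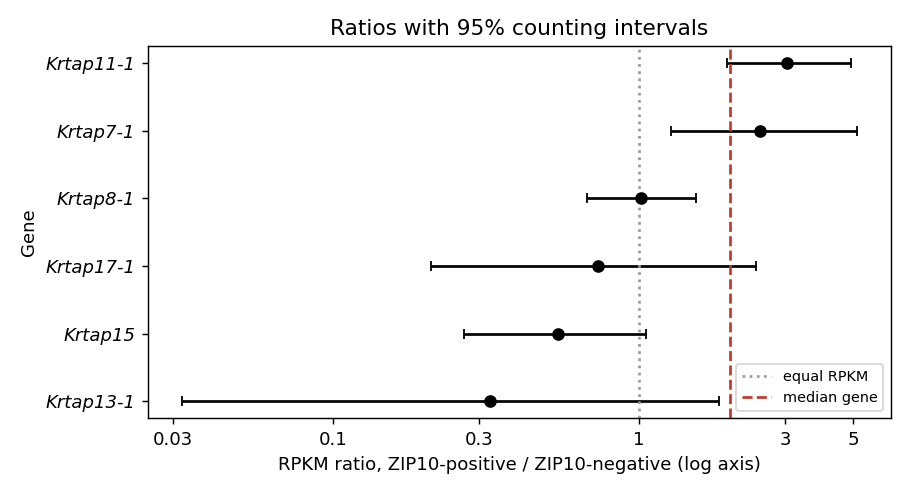
RPKM ratio of ZIP10-positive to ZIP10-negative cells, on a log axis, for the 6 members with whole reads in both libraries, with bars for exact 95% counting intervals; the dotted line is equal RPKM and the dashed line the median gene at 1.97. The intervals of Krtap8-1, Krtap15 and Krtap13-1 end below the dashed line.

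In these 2 libraries the ratios of the more abundant members differed from each other, a comparison in which library scaling cancels. The intervals again cover counting error only. The 4 genes at 5 RPKM or more in both libraries give 6 pairs, and in 4 of them the exact 95% interval of the ratio of ratios excluded 1, without adjustment for the number of pairs. The ratio of Krtap11-1 was 2.996 times that of Krtap8-1, with an interval of 1.60 to 5.65, and 5.61 times that of Krtap15, with an interval of 2.43 to 13.1. The ratio of Krtap7-1 was 2.44 times that of Krtap8-1, with an interval of 1.09 to 5.64, and 4.57 times that of Krtap15, with an interval of 1.70 to 12.4. Krtap11-1 and Krtap7-1 were not told apart, at 1.23 with an interval of 0.513 to 2.84, nor were Krtap8-1 and Krtap15, at 1.87 with an interval of 0.842 to 4.25. Among these 4 genes the split does not follow the textbook class, since each side holds 1 high-sulfur and 1 high glycine-tyrosine gene.

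Counted by size on the log2(RPKM + 1) scale relative to the median gene, 3 of the 12 genes were 2-fold or more higher in ZIP10-positive cells and 5 were 2-fold or more lower. Among all 12249 genes that passed the same minimum, 14.7% were higher and 11.4% lower by this rule. The 3 higher genes, Krtap1-5, Krtap3-3 and Krtap16-3, were all listed at 0 in ZIP10-negative cells. Of the 5 lower genes, Krtap1-4 and Krtap8-2 were listed at 0 in ZIP10-positive cells, and Krtap13-1, Krtap15 and Krtap17-1 had values in both. The scale understates the ratio of low genes, and a gene that passed the minimum through 1 library alone had to differ, so these counts support no direction. Without members listed at 0 in a library, 0 of 6 were higher and 3 lower, so the higher calls rest on listed zeros. The share over all genes was not computed without listed zeros. Of the 12 genes 6 were listed at 0 in the other library, against 6.07% of all genes. As deposited, 6 of the 12 were higher and 3 lower, against 44.1% and 3.55% of all genes.

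The median log2 ratio of the 12 genes relative to the median gene was -0.31, beside 0.094 for all 12249 genes, and as deposited it was 0.56 beside 0.87. The high-sulfur median was 0.60 over 7 genes and the high glycine-tyrosine median -0.31 over 4 genes. The high-sulfur value turned to -1.71 without the genes listed at 0 in a library, so it carries no direction for the class. By subfamily number the log2 values relative to the median gene were 2.998 for 16, 2.13 for 3, 0.86 for 2, 0.60 for 11 and 0.31 for 7 on the higher side. On the lower side they were -2.01 for 8, -1.79 for 13, -1.71 for 15, -1.17 for 17 and -0.24 for 1. Of these, 8 and 1 are medians of 2 genes, and the rest on both sides are single genes. For 8 the value was -0.94 without its gene listed at 0, and -1.08 for summed RPKM. The 2 genes of 1, each listed at 0 in a library, stood at 1.65 and -2.12, so their median gives no direction. The values of 16, 3 and 2 rest on a listed 0 in ZIP10-negative cells. Summed over all members the RPKM were 147.8 in ZIP10-positive and 105.7 in ZIP10-negative cells, a ratio of 1.398, below the 1.97 of the median gene. Krtap8-1, Krtap11-1 and Krtap7-1 made up 77.4% of the ZIP10-positive sum.

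In RefSeq the 52 genes lie on 4 chromosomes. All members on a chromosome, in gene order, are called a block here, whatever the distance or other genes between them. Of the 21 members in the block from Krtap3-3 to Krtap17-1, 5 reached 1 RPKM, and of the 23 in the block from Krtap24-1 to Krtap11-1, 7 did. None of the 3 members in the block from Krtap12-1 to Krtap10-10 or of the 5 in that of subfamily 5 did. Krtap8-1, Krtap7-1 and Krtap11-1, the most abundant members in ZIP10-positive cells, follow each other as the last of their block. The nearest listed members before them, Krtap6-2 and Krtap16-7, stood at 0 in both libraries. Next to each other in the other block, Krtap1-5 and Krtap1-4 were each listed at 0 in a different library.

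**Figure D3:**
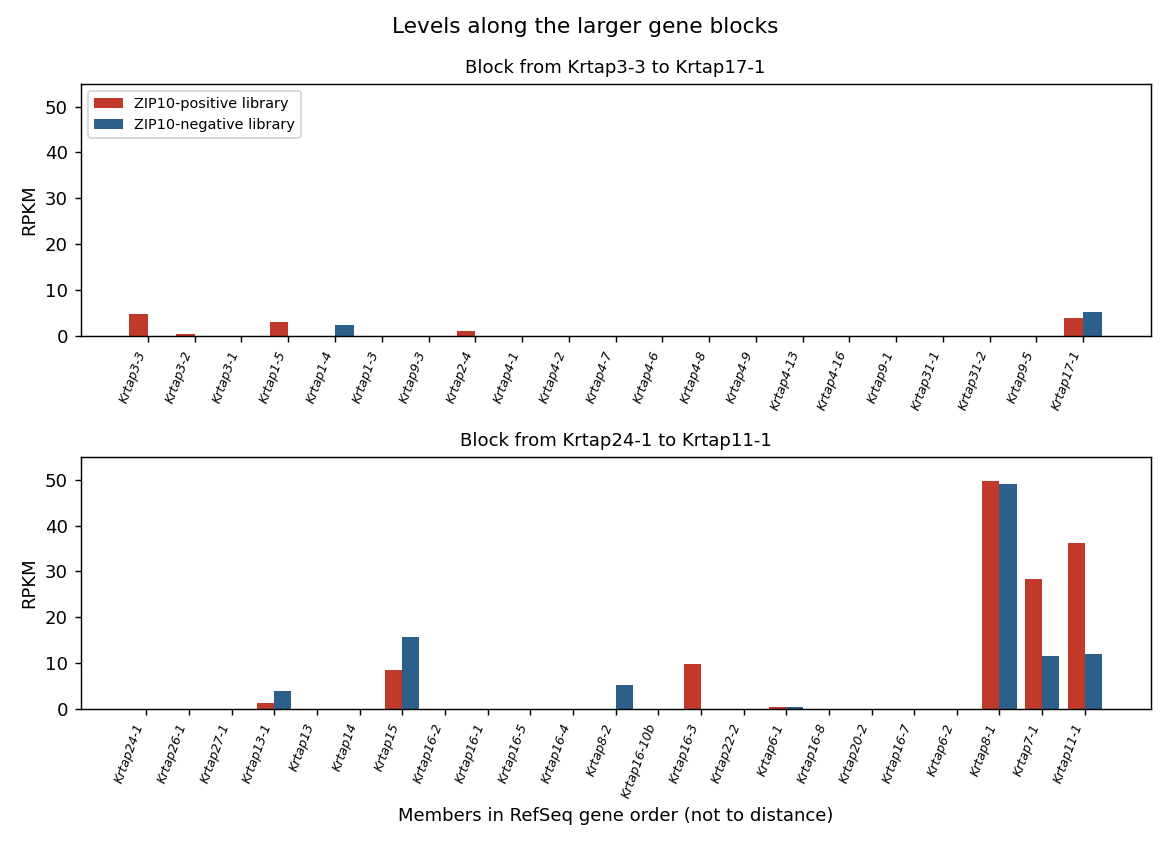
RPKM in the ZIP10-positive and ZIP10-negative libraries for the members of the 2 larger gene blocks, in RefSeq order and not to distance; each bar is 1 library. The tallest bars, for Krtap8-1, Krtap7-1 and Krtap11-1, stand side by side at the end of the lower block, and most members stand at 0.

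Close copies can share reads, and the members measured here were mostly those with distinct sequence. Of the 50-base windows of each GENCODE transcript, the read length of the study, the share found without mismatch in a transcript of another gene was 0% in 7 of the 12 genes that reached 1 RPKM and in 7 of the other 40. The median share was 0% in the former and 14.2% in the latter. Krtap8-1, Krtap7-1, Krtap11-1, Krtap15, Krtap13-1, Krtap17-1 and Krtap8-2 shared no window. The values of Krtap2-4, with 43.8% of windows shared, mostly with Gm11562, and Krtap3-3, with 41.3% shared, mostly with Krtap3-2, are uncertain. Krtap6-1 shared 28.3%, and the highest share was 81.3% in Krtap4-13, which was listed at 0. Whether shared sequence bears on the listed zeros was not tested.

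**Figure D4:**
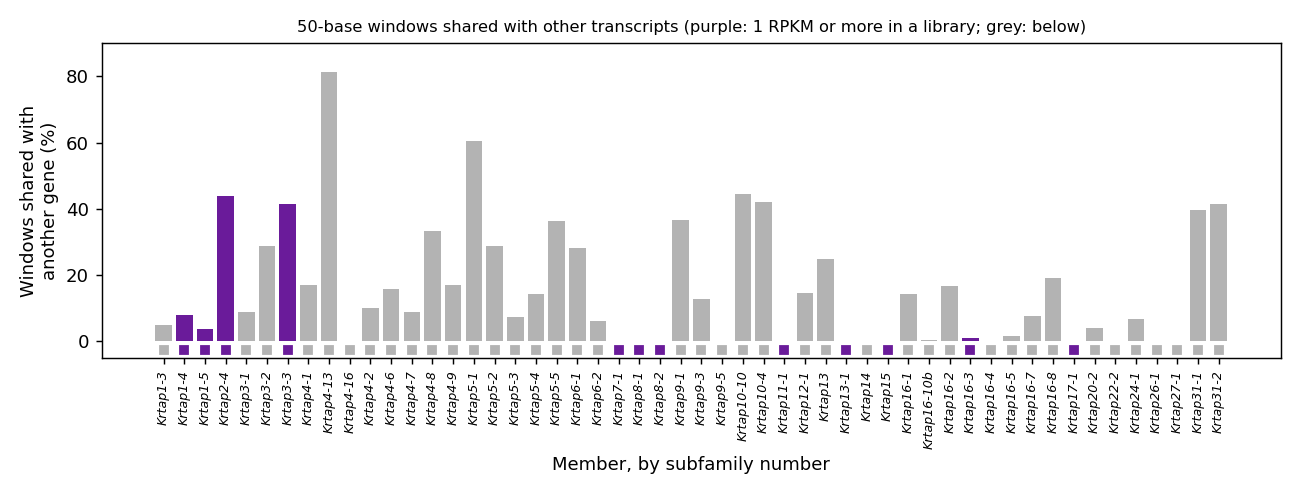
Percent of 50-base windows of each of the 52 members that also occur in a transcript of another gene, by subfamily number; purple bars and squares mark the 12 members that reach 1 RPKM and grey ones the other 40. Squares below the axis show the colour of members with no bar, and 7 of the 12 purple members share no window.

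Other genes of the hair shaft came from lists of hair keratins, regulators and shaft proteins. Of 15 listed hair keratins 9 reached 1 RPKM, all in both libraries. By the 2-fold rule against the median gene 0 counted as higher and 3 as lower, around a median of -0.35. Among all genes at the same minimum 14.7% were higher and 11.4% lower. Krt35, a type I keratin of the lower shaft, stood at 109 RPKM against 59.7 RPKM, and Krt85, its early type II counterpart, at 37.7 against 24.5 RPKM. The lower genes were the type I cortex keratins Krt33a, at 12.4 against 24.6 RPKM, Krt33b, at 10.1 against 16.7 RPKM, and Krt31, at 14.8 against 17.7 RPKM. These are close copies of each other. The type II keratins Krt81, at 7.51 against 3.19 RPKM, and Krt83, at 16.03 against 13.997 RPKM, and the type I keratin Krt34, at 7.75 against 3.90 RPKM, were less than 2-fold from the median gene. The summed hair keratin RPKM had a ratio of 1.31 between the libraries, beside 1.398 for the keratin-associated protein genes.

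**Figure D5:**
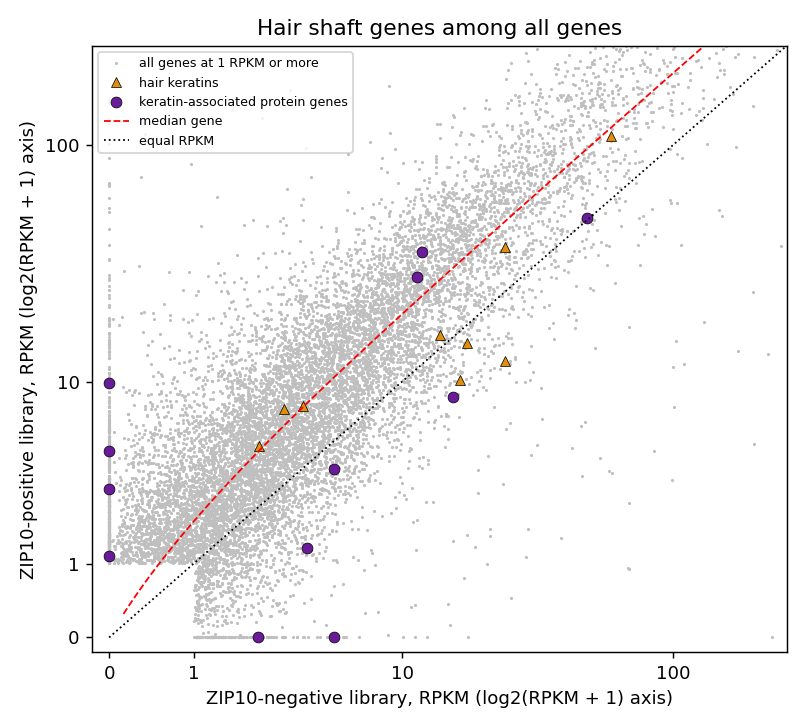
RPKM of the ZIP10-negative (x) and ZIP10-positive library (y) on log2(RPKM + 1) axes that end above 100 RPKM, with grey points for genes that reach 1 RPKM, circles for keratin-associated protein genes and triangles for hair keratins. The dashed line is the median gene at 1.97-fold and the dotted line equal RPKM; Krtap11-1 and Krtap7-1 lie above the dashed line and Krtap8-1 and Krtap15 below it.

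All 8 regulators of the hair matrix and shaft reached 1 RPKM in both libraries, with 0 higher and 1 lower by 2-fold relative to the median gene and a median of -0.15. Hoxc13, a homeodomain factor that activates hair keratin and keratin-associated protein genes, stood at 10.1 against 5.29 RPKM, within a log2 value of -0.033 of the median gene. Foxn1, the factor lost in nude mice, stood at 2.50 against 5.12 RPKM and was the lower gene. Lef1, which carries WNT signals in the matrix, stood at 18.8 against 18.95 RPKM, Dlx3 at 84.2 against 73.0 RPKM, Bmpr1a at 14.1 against 7.67 RPKM, and Msx2 at 34.8 against 9.96 RPKM. Of 10 other shaft proteins 8 reached 1 RPKM, with 1 higher and 3 lower and a median of -0.44. The higher gene was S100a3, a calcium and zinc binding protein of the cuticle, at 79.9 against 11.6 RPKM. The lower genes were Psors1c2, at 1.12 against 6.34 RPKM, Gprc5d, a receptor-like protein of hard-keratin cells, at 0.645 against 2.65 RPKM, and Prr9, at 3.67 against 4.89 RPKM. Padi3, which converts arginines in shaft and sheath proteins to citrulline, stood at 7.90 against 3.98 RPKM.

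Markers of neighbouring cells gave these values beside the shaft genes. All 9 listed inner root sheath markers reached 1 RPKM in a library, with 1 higher and 1 lower by 2-fold, a median of -0.061 and a summed level of 693 against 369 RPKM. All 9 melanocyte markers, of the pigment cells that sit in the bulb beside the shaft precursors, reached it too, with 0 higher and 2 lower, a median of -0.40 and a summed level of 293 against 209 RPKM. None of either list stood at 0 in a library. Over all genes, 14.7% were higher and 11.4% lower by the same rule. The summed ratio was 1.401 for the melanocyte and 1.88 for the inner root sheath markers, beside 1.398 for the keratin-associated protein genes. For the regulators it was 1.401 and for the other shaft proteins 2.71, so the lists differed. Whether the share of bulb cells in each fraction moved the family's values was not tested.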

How the data were processed

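RNA was measured in 2 libraries of sorted skin cells, 1 per group, grouped by the cell type label. The authors deposited 1 table of RPKM values per gene symbol. Per the submitters' processing notes, these were cutadapt, TopHat and Cufflinks, with mm9 as the genome build; nothing further on these steps is given in the sources used here.

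Members, lists and classes were chosen with earlier results of these data known. Symbols were matched to RefSeq (44 by symbol, 8 by an older symbol), and lengths and gene order come from GRCm38.p6, another build, so no coordinates were joined to the values. Krtap16-1 was read as the gene now named Krtap19-2, since the current Krtap16-1 is listed separately as Gm11570. Classes follow textbook subfamily numbers in place of the planned protein composition, for which no protein sequences were used here. All 8 genes listed as subfamily 16 were classed as high glycine-tyrosine, also Krtap16-3, which keeps that number. The class counts and medians depend on this choice.

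Each gene was given a log2 ratio of its RPKM plus a pseudocount of 1, positive over negative, with a minimum of 1 RPKM in a library, after dividing the median log2 ratio between the libraries; plain ratios have no pseudocount. Named are members at 5 RPKM or more, the most abundant of each subfamily at 1 RPKM or more, members 2-fold or more apart, and list genes at 5 RPKM or more; not every list gene under the rule is printed, and lower list genes were named where they were counted.

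Reads were estimated because whole reads leave whole-number ratios. Of 1389 genes between 0 and 1 RPKM in each library, 64.6% had a ratio of whole numbers up to 20 times 0.975, at a tolerance of 0.0012%. Depth came from 100 single-exon genes, of which 32 fell within 1.4% of the mode, with an assumed 199 bases taken off each length. Of the 21 member values above 0, 19 came out within 1.60% of a whole read, and those of Krtap6-1 were left out of this comparison. The distance is relative, so large estimates meet it in any case, and it does not check the reads of the most abundant members. Krtap8-1, estimated at 52.6 and 50.6 reads, was given 52 and 50 from the whole-number ratio of its values. Intervals are exact 95% ones. The deposited RPKM scale depends on the reads of the most abundant genes, globins among them. Python 3.11.15, pandas 2.3.3, numpy 2.4.6, scipy 1.17.1 and matplotlib 3.10.9 were used. The steps for depth, the median gene and 2-fold calls were tested on simulated data, and the other steps were not. The simulation used exact lengths and the same 199 bases, so it does not check that assumption. Alternatives were other scalings, pseudocounts, minimum values, leaving out listed zeros and summing subfamilies.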

Additional observations from a re-analysis of the deposited data

How the results depend on the processing

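Of 212 recomputed values, 169 stayed in range (the counting interval of a gene or subfamily, 1.5 times for a count, the same sign within a log2 unit for other medians) and 43 moved. For subfamilies 1 and 8 the range ran from the lowest to the highest limit of both genes, so it was wide. No result changed sign among values 2-fold or more from the median gene, but for many of them this was fixed in advance. Counts and genes listed at 0 in 1 library could not change sign, nor could any gene under another pseudocount. Subfamilies with 1 gene at the minimum repeat the values of that gene. As deposited, genes 2-fold higher were 6 in place of 3 and lower 3 in place of 5, against 44.1% and 3.55% of all genes. The median of all Krtap genes became 0.56, of the high glycine-tyrosine class 0.63, of subfamily 2 1.103, of 3 2.53, of 11 1.53, of 15 -0.81 and of 16 3.43. With a pseudocount of 0.1, subfamilies 2, 3, 8 and 16 became 3.20, 5.13, -3.60 and 6.15. A pseudocount of 5 left 1 gene higher and 2 lower, against 5.61% and 3.01% of all genes. A minimum of 5 RPKM left 7 genes, 1 higher and 3 lower, and a high-sulfur median of -0.56. Without listed zeros 6 genes remained, 0 higher and 3 lower, with a high-sulfur median of -1.71. For the minimum of 5 RPKM and for leaving out listed zeros, shares over all genes were not computed. Summing subfamily 3 gave 2.23, and summing subfamily 8 gave -1.08 in place of -2.01, which counted as in range. The zero point lay at 0.98, and moved to 1.32 with scaling outside the 50 most abundant genes and to 1.39 without globin genes and Rn45s; of all genes 9.74% were then higher and 17.5% lower, or 8.99% and 19.2%, in place of 14.7% and 11.4%. Krtap7-1 turned to -0.016 and -0.082 there, while Krtap11-1 stayed above 0, at 0.27 and 0.20. Apart from fewer genes under stricter minimums, the cause was not tested. No paired analysis was possible because each group has 1 library. Depth limits every member, since no member rests on more than an estimated 81 reads in a library.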

Other observations

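Keratin-associated protein genes that the table lists under other symbols were no members by the rule. Of such symbols 3 were looked up, Gm10272, Gm11570 and 2310057N15Rik, and all 3 were listed at 0 in both libraries. No search was made for further ones, so the values of other such genes are not known here. Outside the family, Krt71 and Krt28, keratins of the inner root sheath, stood at 296 and 179.9 RPKM in ZIP10-positive and at 93.3 and 95.3 RPKM in ZIP10-negative cells, above the highest member of the family in each library.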
